A study of Drosophila melanogaster with 6 samples.

Results

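The genes described here are known to make, deposit, trim and deacetylate chitin. Their RNA levels were compared in the oviduct of Drosophila melanogaster, the fruit fly's egg duct. What they do in that tissue was not tested. The genes are mmy, kkv, knk, rtv, Gasp, verm, serp, Cht2, Cht5 and Cht7, 10 in all, chosen by name from the chitin pathway. A gene was measured where a probe set of the array was annotated to it and to no other gene, and where there were several, the one brightest on average (log2 scale, 6 arrays) stood for the gene. By that rule 9 of the 10 were measured, out of 10844 genes on the array. The remaining gene, rtv, which works in the same step as knk, was not analysed here.

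Oviducts were taken from mated females, dissected 3 h after mating ended, and from unmated females dissected at parallel times. All females were 3 days old and kept at about 23 °C. Each group had 3 Affymetrix arrays, which the labels call biological repeats. Tracts of 400 to 500 females were pooled, and the labels do not say whether there was 1 pool per array or per group, so p-values measure only the spread between these arrays. The labels give no strain, and mating is the only difference between the groups that they state. Values are intensities on a linear scale, from 0.2 to 30276.7 over all probe sets, and the number of arrays limits their precision. Intensities under 14.2, the lowest lower quartile of any array, are too dim for exact folds. Over all probe sets the median intensity was 60.6 to 66.4 on the mated arrays, against 86.2, 86.0 and 62.4 on unmated arrays 1, 2 and 3, so unmated arrays 1 and 2 stood apart from the other 4. In such bulk samples fewer cells of a type and less RNA per cell cannot be told apart.

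Chitin is a polymer of N-acetylglucosamine that stiffens insect cuticle. Ectodermal tubes such as the tracheae carry a cuticle, and so does the lining of the lower female genital tract. The sugar is first activated to UDP-N-acetylglucosamine, chitin synthase in the apical membrane polymerises and extrudes it, and secreted or membrane-bound proteins order the fibres. Deacetylases then change their texture, and chitinases cut them during turnover. In the embryonic trachea, loss of synthesis, ordering or deacetylation is known to distort tube shape.

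For none of the 9 chitin genes was the difference between mated and unmated oviducts large enough, against the spread between arrays, to pass the test. Limma called 0 of the 9 at a Benjamini-Hochberg adjusted p of 0.05, and it called 0 of all 13966 probe sets (0%). At an unadjusted p of 0.05 it also called 0 of the 9, against 6.23% of all genes, 0.987% higher and 5.25% lower in mated oviducts. The smallest p among the 9 was 0.0592, for knk, with an adjusted p of 0.76 in limma. In 0 of the 9 did the 3 mated values lie wholly above or below the 3 unmated values, against 10.9% of all genes, 2.45% above and 8.43% below. The log2 difference, mated minus unmated, was below 0 in 7 of the 9, as it was in 62.2% of all genes. With other scalings of the arrays this count was 5 of 9 after quantile normalization (50.3% of all genes), 6 of 9 after median centring (41.2%) and 5 of 9 after cyclic loess (49.9%). The 9 genes had a median log2 difference of -0.39, which is -0.24 relative to the all-gene median of -0.16. Median centring put that all-gene median at 0.11.

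**Figure D1:**
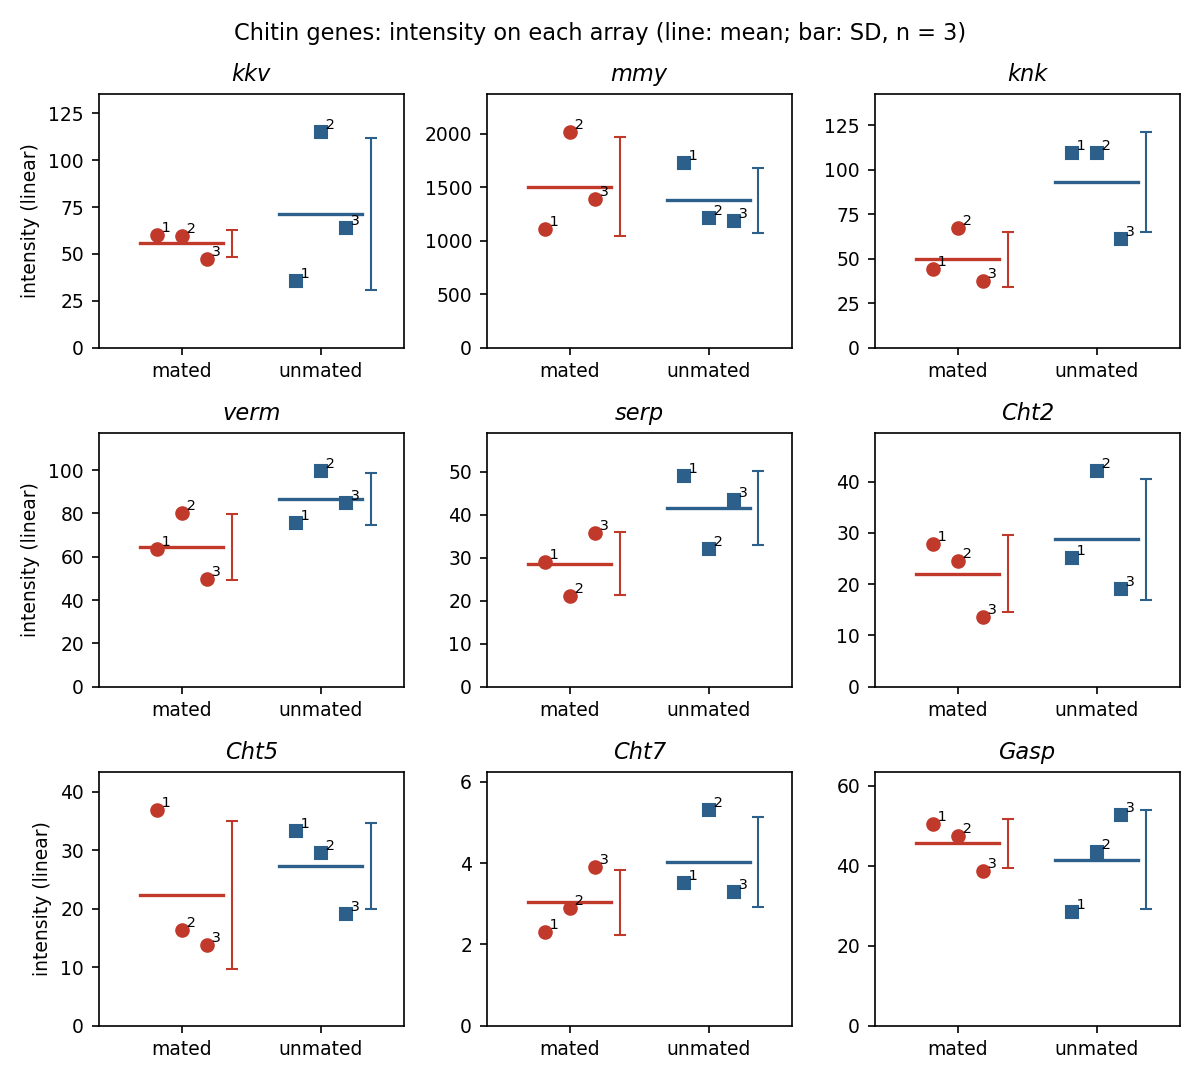
Intensity (linear scale from 0, 1 panel per gene) of the 9 measured chitin genes on 3 mated and 3 unmated oviduct arrays, numbered by replicate, with the group mean (line) and SD (bar). The groups overlap in every panel. The knk, verm and serp panels come nearest to separation, each with the mated value lower in 8 of 9 array pairs. In the knk panel only mated array 2 (67.3) reaches above the lowest unmated array (61.0).

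The precursor gene mmy, which encodes the pyrophosphorylase that makes UDP-N-acetylglucosamine, was the only one of the 9 above the median intensity of its array on all 6 arrays. Its intensity was 1111.4, 2016.1 and 1393.9 on mated arrays 1, 2 and 3, against 1731.8, 1217.5 and 1188.5 on unmated arrays 1, 2 and 3. Mated array 2 held the highest value and mated array 1 the lowest, so the unmated values lay inside the mated range. Means were 1507 ± 463 in mated and 1379 ± 306 in unmated oviducts (SD, n = 3 each). The log2 difference was 0.11 ± 0.37 (SE), with a 95% confidence interval of -0.76 to 0.97. Without mated array 2 it was -0.13, so its sign rested on that array.

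The gene kkv encodes the chitin synthase of cuticle and trachea. It had intensities of 60.2, 59.4 and 47.4 on the mated arrays, against 35.3, 114.9 and 63.7 on the unmated arrays. The mated values lay close together, while the unmated group held both the lowest and the highest of the 6. On the log2 scale the SD between arrays was 0.19 in mated and 0.85 in unmated oviducts. Means were 55.7 ± 7.17 in mated and 71.3 ± 40.3 in unmated oviducts (SD, n = 3 each). The log2 difference was -0.20 ± 0.47 (SE), within -1.32 to 0.91 at 95% confidence. Which unmated array was left out decided its sign. It was 0.22 without unmated array 2 and -0.63 without unmated array 1.

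The gene knk encodes a membrane-anchored protein that organises newly made chitin and, as shown in the beetle Tribolium, shields it from chitinases. It was measured at 44.1, 67.3 and 37.5 on the mated arrays, against 109.3, 109.4 and 61.0 on the unmated arrays. The mated value was the lower one in 8 of the 9 pairs of a mated and an unmated array, and the exception was mated array 2 against unmated array 3. Means were 49.6 ± 15.7 in mated and 93.2 ± 27.9 in unmated oviducts (SD, n = 3 each). This was the largest difference among the 9 genes, -0.90 ± 0.40 on the log2 scale (SE), or 0.53-fold. Its 95% confidence interval ran from 0.28-fold to 1.03-fold. The high values were those of unmated arrays 1 and 2, and without these arrays the log2 difference was -0.34, with 1 unmated array against 3 mated ones.

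Gasp, also called obst-C, is a secreted chitin-binding protein of trachea and epidermis. Its intensity was 50.5, 47.5 and 38.7 on the mated arrays, against 28.3, 43.5 and 52.7 on the unmated arrays. All 3 mated values fell inside the unmated range, and unmated array 1 held the lowest of the 6. Means were 45.6 ± 6.13 in mated and 41.5 ± 12.3 in unmated oviducts (SD, n = 3 each). The log2 difference was 0.17 ± 0.36 (SE), with a 95% confidence interval of -0.68 to 1.02. Without unmated array 1 the value was -0.081. Without unmated arrays 1 and 2 it was -0.22.

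The deacetylase genes verm and serp are direct neighbours in the RefSeq annotation, with 0 protein-coding genes between them. Both products are secreted into the tracheal lumen of the embryo, where they limit tube length. The intensity of verm was 63.5, 80.3 and 49.6 on the mated arrays, against 75.8, 99.5 and 85.0 on the unmated arrays. Again 8 of 9 array pairs had the lower value in mated oviducts, with mated array 2 above unmated array 1. Its log2 difference was -0.45 ± 0.34 (SE), within -1.24 to 0.34 at 95% confidence. It was -0.43 without unmated arrays 1 and 2.

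The brighter of the 2 serp probe sets had intensities of 28.9, 21.1 and 35.7 on the mated arrays, against 49.0, 32.1 and 43.3 on the unmated arrays. The mated value was lower in 8 of 9 pairs here too, and only mated array 3 reached above unmated array 2. The log2 difference was -0.55 ± 0.36 (SE), with a 95% confidence interval of -1.39 to 0.30, and -0.63 without unmated arrays 1 and 2. The second serp probe set did not share this difference. It read 24.9, 22.5 and 20.7 on the mated arrays, against 28.8, 18.2 and 20.0 on the unmated arrays, a log2 difference of 0.049 ± 0.33 (SE). With both probe sets averaged, the serp difference was -0.25. For verm, knk and serp the size also depended on the scaling. After cyclic loess the log2 difference was -0.22 for verm, -0.66 for knk and -0.23 for serp.

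Of the chitinase genes, Cht5 encodes an enzyme linked to moulting in other insects such as Tribolium, and Cht2 and Cht7 belong to other groups of the same enzyme family. Cht5 had intensities of 36.8, 16.3 and 13.8 on the mated arrays, against 33.3, 29.5 and 19.1 on the unmated arrays. Mated array 1 was the highest of all 6 and mated arrays 2 and 3 the lowest. Cht2 had 27.9, 24.6 and 13.6 on the mated arrays, against 25.0, 42.0 and 19.1 on the unmated arrays. The log2 difference was -0.39 ± 0.47 for Cht5 and -0.37 ± 0.45 for Cht2 (SE). Without unmated arrays 1 and 2 both lay above 0, at 0.083 for Cht5 and 0.14 for Cht2.

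Cht7 was below 14.2 on all 6 arrays. It read 2.3, 2.9 and 3.9 on the mated arrays, against 3.5, 5.3 and 3.3 on the unmated arrays. Its log2 difference of -0.41 ± 0.37 (SE) turned to 0.039 after quantile normalization and 0.12 after cyclic loess. At this level the arrays give no usable fold. Cht5 and Cht2 each fell under 14.2 on 1 array, mated array 3.

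**Figure D2:**
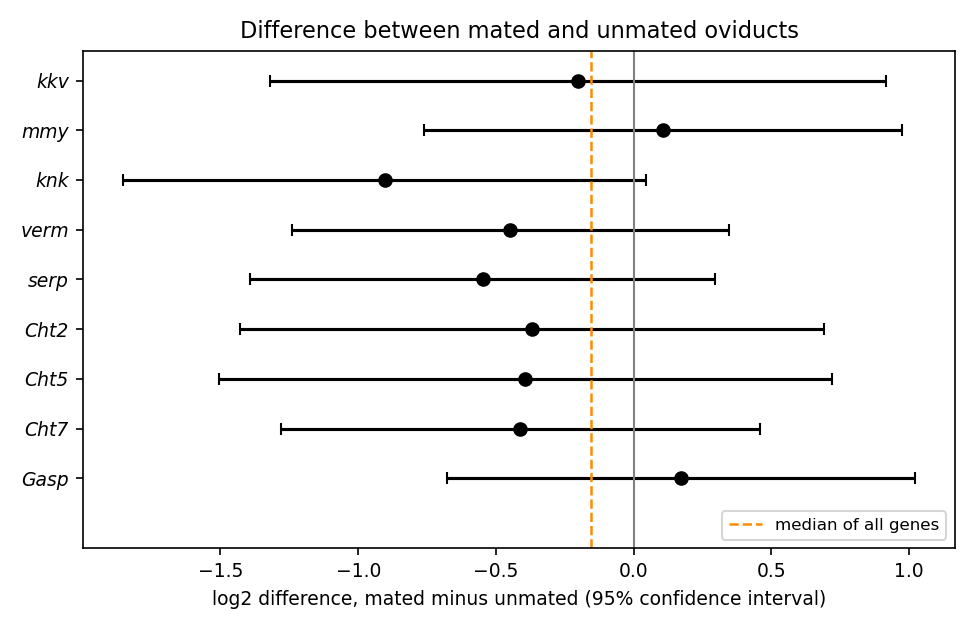
Log2 difference, mated minus unmated oviducts (x axis), of the 9 measured chitin genes (y axis) with 95% confidence intervals from limma. The vertical lines stand at 0 and at the median of all genes (-0.16). Every interval includes 0, and the upper end for knk lies at 0.046.

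The intervals show what size of difference these arrays could not exclude. Their reach to either side ran from 0.79 for verm to 1.12 for kkv on the log2 scale. In 7 of the 9 genes the interval still held a level in mated oviducts less than 0.5 times that in unmated ones, a log2 difference of -1. The exceptions were mmy, with a lower bound of 0.59-fold, and Gasp, with a lower bound of 0.63-fold. On the other side, only Gasp had an upper bound above 2-fold, at 2.03-fold.

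**Figure D3:**
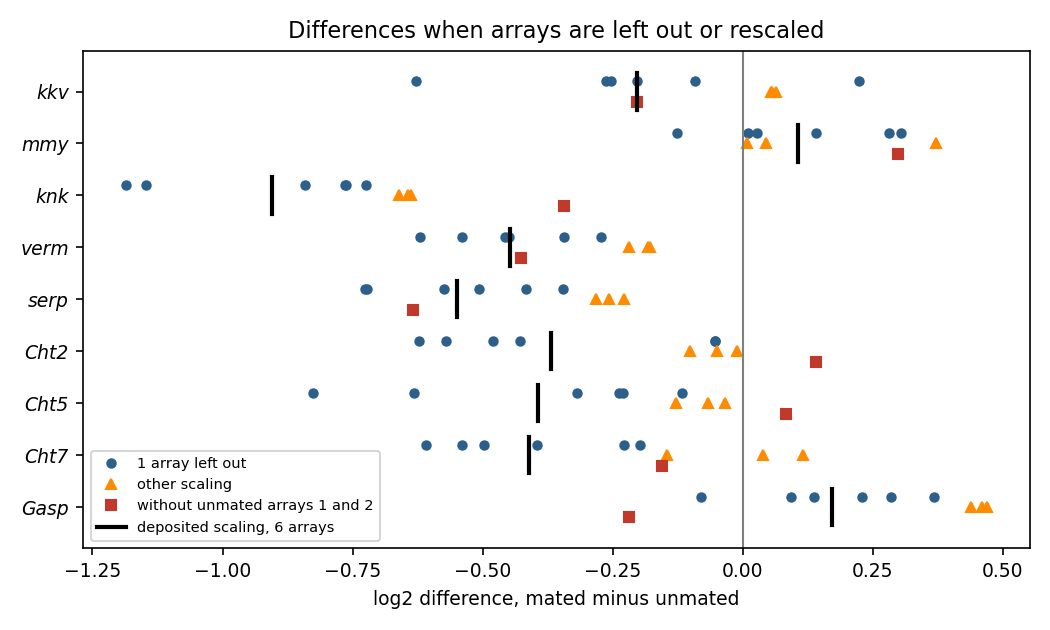
Log2 difference, mated minus unmated (x axis), of the 9 genes (y axis) with the deposited scaling and all 6 arrays (black bar), with each array left out in turn (circles), after quantile normalization, median centring or cyclic loess (triangles), and without unmated arrays 1 and 2 (squares). The values of knk, verm and serp stay below 0 throughout, while those of kkv, mmy, Cht2, Cht5, Cht7 and Gasp lie on both sides of 0.

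The chitin pathway beyond these genes was described with a list of 49 genes in 7 roles, of which 43 were measured, the 9 included. Limma called 0 of the 43 at an adjusted p of 0.05 and 0 at an unadjusted p of 0.05. The groups did not overlap in 5 of the 43, or 11.6%, all lower in mated oviducts, against 8.43% lower and 2.45% higher among all genes. In 33 of the 43 (76.7%) the log2 difference was below 0, against 62.2% of all genes. This count was 24 of 43 (55.8%) after quantile normalization (50.3% of all genes), median centring (41.2%) or cyclic loess (49.9%). Without unmated arrays 1 and 2 it was 23 of 43 (53.5%), against 49.5% of all genes. Below the all-gene median lay 29 of 43 with the deposited scaling, and 24 after quantile normalization or cyclic loess. Median centring shifts the difference of every gene by the same amount, so it cannot change a position relative to that median. The list's median was -0.23 relative to all genes.

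With mmy, 4 genes that supply UDP-N-acetylglucosamine were measured. They had a median log2 difference of 0.36 relative to all genes, and all 4 lay above the all-gene median with the deposited scaling, quantile normalization and cyclic loess. With 1 array left out, 3 or 4 of them did. All 4 measured genes of synthesis and export lay below the all-gene median with the deposited scaling. Only 2 of 4 did after quantile normalization or cyclic loess, and 2 of 4 without mated array 3 or without unmated array 3. Of the 4, the gene reb, which acts with kkv in chitin deposition, had groups that did not overlap. It read 9.1, 9.0 and 8.6 on the mated arrays, against 20.6, 19.7 and 9.4 on the unmated arrays. Its mated values and that of unmated array 3 were under 14.2, and the log2 difference was -0.81 ± 0.40 (SE) with all arrays and -0.079 without unmated arrays 1 and 2.

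Among 12 measured genes of fibre assembly and chitin binding, 10 had a log2 difference below 0 (62.2% of all genes). The count was 8 after quantile normalization (50.3%) or cyclic loess (49.9%), 9 after median centring (41.2%) and 5 without unmated arrays 1 and 2 (49.5%). The median of the 12 relative to all genes was -0.47 with all arrays and 0.36 without those 2. Only 3 of the 12 had a mean log2 level above the median of all probe sets. The obstructor gene obst-G, whose family encodes secreted chitin-binding proteins, had 40.7, 35.2 and 19.6 on the mated arrays, against 56.4, 77.4 and 40.8 on the unmated arrays. The groups did not overlap, although mated array 1 and unmated array 3 lay side by side. Its log2 difference was -0.89 ± 0.43 (SE). Another obstructor gene, obst-B, had 154.3, 46.4 and 63.3 on the mated arrays, against 31.4, 41.9 and 54.2 on the unmated arrays. Its difference of 0.89 ± 0.51 (SE) was 0.39 without mated array 1. The peritrophin gene Peritrophin-15a had 174.4, 190.4 and 104.1 on the mated arrays, against 297.6, 296.4 and 169.7 on the unmated arrays, a log2 difference of -0.70 ± 0.41 (SE) that was -0.17 without unmated arrays 1 and 2.

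All 9 measured chitinase genes had a log2 difference below 0 with the deposited scaling (62.2% of all genes). The count was 7 of 9 after quantile normalization (50.3%) or cyclic loess (49.9%) and 8 of 9 after median centring (41.2%). It was 5 of 9 without unmated arrays 1 and 2 (49.5%). Many of these genes were dim, and only 2 of the 9 had a mean log2 level above the median of all probe sets. Cht7 was under 14.2 on all 6 arrays, Cht4 on 4, and Cht2, Cht5 and Cht10 on 1 each. The chitinases had a median of -0.41 relative to all genes. All 9 lay below the all-gene median with the deposited scaling, and 7 did after quantile normalization or cyclic loess. In Cht6 the intensities were 59.3, 87.4 and 51.1 on the mated arrays, against 95.2, 130.7 and 94.6 on the unmated arrays. In Cht11 they were 171.9, 207.9 and 155.4 on the mated arrays, against 328.6, 236.5 and 231.0 on the unmated arrays. Neither pair of groups overlapped, and the log2 differences were -0.72 ± 0.36 for Cht6 and -0.56 ± 0.33 for Cht11 (SE). Without unmated arrays 1 and 2 they were -0.56 and -0.38. Cht9 had the largest difference among the chitinases, -1.24 ± 0.57 (SE), and its groups overlapped, at 30.6, 45.5 and 24.8 on the mated arrays against 171.6, 64.2 and 41.0 on the unmated arrays. Without unmated arrays 1 and 2 it was -0.33.

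All 6 measured deacetylase genes also lay below 0, and 4 of 6 did after quantile normalization, median centring or cyclic loess. Below the all-gene median lay all 6 with the deposited scaling, and 4 after quantile normalization or cyclic loess. Without unmated arrays 1 and 2, 5 of 6 lay below 0. Only 2 of the 6 had a mean log2 level above the median of all probe sets. The shares of all genes below 0 are those given for the chitinases. Cda5 had 23.5, 28.1 and 20.1 on the mated arrays, against 31.7, 29.9 and 31.8 on the unmated arrays, with no overlap and a log2 difference of -0.39 ± 0.31 (SE). It was -0.074 after quantile normalization, -0.051 after cyclic loess, -0.13 after median centring and -0.79 with both Cda5 probe sets averaged. The second Cda5 probe set, at a log2 difference of -1.19, was under 14.2 on 5 of the 6 arrays and too dim for an exact fold. The chitinase-like growth factors, the Idgf genes, share the chitinase fold but lack the catalytic activity. Of these 6 genes, 3 lay above 0 and 3 below, with a median of 0.25 relative to all genes. That median was 0.070 after quantile normalization, 0.051 after cyclic loess, -0.016 without unmated array 1 and -0.038 without unmated arrays 1 and 2. The 2 measured hexosaminidase genes had a relative median of 0.27, which was 0.60 without mated array 1, 0.055 without mated array 2, 0.15 without mated array 3 and 0.17 without unmated arrays 1 and 2. Adjusted p-values of the 34 pathway genes other than the 9 ran from 0.762 to 0.999 in limma.

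**Figure D4:**
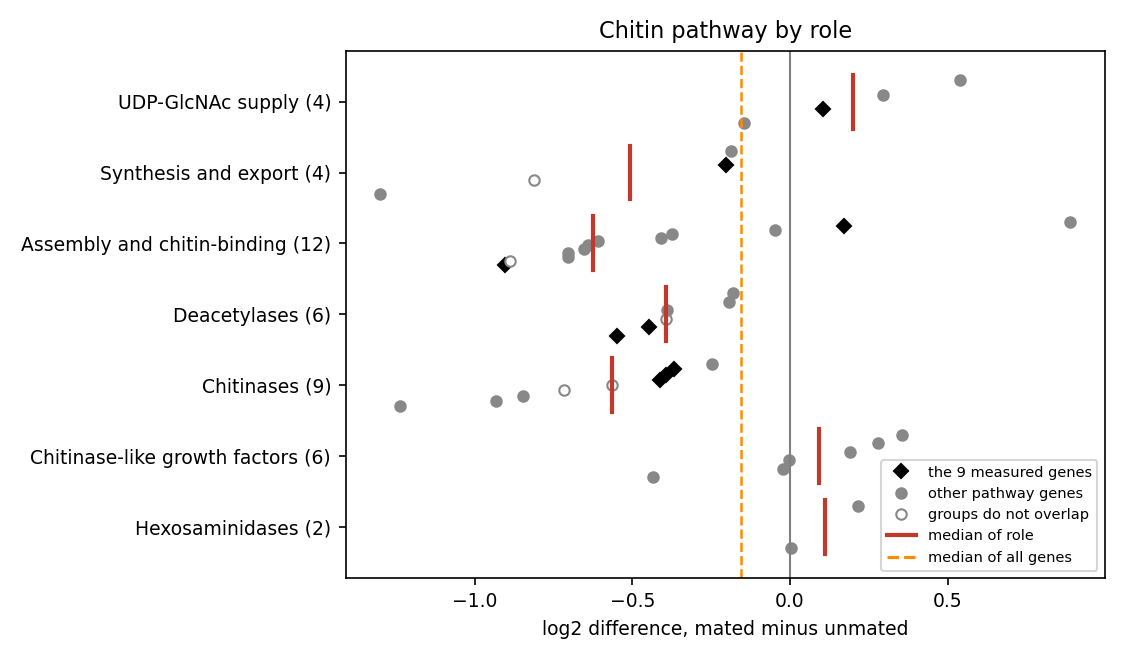
Log2 difference, mated minus unmated (x axis), of 43 measured chitin pathway genes by role (y axis, number of genes in brackets). Diamonds are the 9 genes described first, open circles are genes whose groups do not overlap, red bars are medians of a role, and the vertical lines stand at 0 and at the median of all genes. The 9 chitinases and the 6 deacetylases lie left of 0, and the supply genes spread from -0.15 to 0.54.

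The medians of the ovary and midgut marker lists moved more between the arrays than the median of the chitin genes did. Set against each gene's own mean and against all genes, the median log2 level of the 9 chitin genes was -0.15, 0.047 and -0.21 on mated arrays 1, 2 and 3, against -0.12, 0.22 and 0.050 on unmated arrays 1, 2 and 3. The groups overlapped. Single genes of the 9 moved further than this median, as kkv did, from -0.93 on unmated array 1 to 0.74 on unmated array 2. The median of 13 measured ovary and eggshell markers, of 15 listed, was -0.14, -0.91 and -0.63 on the mated arrays, against 1.11, 0.85 and -0.49 on the unmated arrays. For 9 of 12 midgut markers it was -0.18, -0.93 and -1.59 on the mated arrays, against 1.02, 1.50 and -0.20 on the unmated arrays. Both tissue lists were thus high on unmated arrays 1 and 2, the arrays on which knk stood at 109.3 and 109.4. Their summed intensity was 1767 to 5150 in mated and 3158 to 13134 in unmated oviducts for ovary and eggshell. For midgut it was 442.8 to 734.1 in mated and 700.7 to 3760 in unmated oviducts. No marker was at 0. Their part in the chitin gene values was not tested.

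Tissues that carry cuticle themselves could also lie in the sample. Of 7 listed markers of epidermis and cuticle hardening, 6 were measured, with a summed intensity of 205.5 to 300.3 in mated and 271.1 to 357.5 in unmated oviducts. With the deposited scaling 2 of the 6 had a log2 difference above 0, y at 0.84 ± 0.55 and t at 0.60 ± 0.48 (SE), and the median of the 6 was -0.16 relative to all genes. The 2 with the lowest differences are given here. Ddc, the dopa decarboxylase of cuticle tanning, had 63.7, 81.4 and 77.3 on the mated arrays, against 127.2, 128.8 and 109.5 on the unmated arrays. The laccase gene stw, which cross-links cuticle, had 64.3, 64.4 and 41.3 on the mated arrays, against 90.9, 95.2 and 80.7 on the unmated arrays. The groups did not overlap in either, and 8.43% of all genes lay lower in mated oviducts without overlap. The log2 differences were -0.72 ± 0.31 for Ddc and -0.68 ± 0.33 for stw (SE), with adjusted p of 0.752 and 0.777 in limma. Those of ple and e, whose groups overlapped, were -0.31 ± 0.44 and -0.31 ± 0.56 (SE). For 7 of 9 tracheal markers the summed intensity was 7231 to 8780 in mated and 5626 to 6925 in unmated oviducts. Nearly all of it came from pio, at 6749.8, 7415.4 and 8444.7 on the mated arrays, against 5580.7, 6505.0 and 5204.9 on the unmated arrays. The sum thus describes pio and not the list. Of the 7 markers, 3 had a log2 difference above 0 and 4 below, with a median of -0.067 relative to all genes. The tracheal receptor gene btl had 109.7, 73.3 and 76.5 on the mated arrays, against 18.3, 90.2 and 70.3 on the unmated arrays. Its log2 difference was 0.80 ± 0.62, beside -1.05 ± 0.47 for uif and -0.89 ± 0.66 for vvl (SE). The gene trh, the defining regulator of trachea, was not measured. The part of epidermis or trachea in the chitin gene values was not tested. The remaining marker lists had median log2 differences, relative to all genes, of 0.10 for muscle (7 of 10 measured), -0.12 for haemocytes (6 of 6), -0.077 for neurons (4 of 5), 0.51 for spermatheca (2 of 2) and -0.023 for sperm and male accessory gland (7 of 8). Of 2 listed octopamine receptor genes known from oviduct epithelium, 1 was measured, Octbeta2R, and Oamb was not. Octbeta2R had 653.0, 242.9 and 378.6 on the mated arrays, against 318.0, 245.9 and 405.3 on the unmated arrays. With no other tissue beside it, this level cannot check what the samples held.

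**Figure D5:**
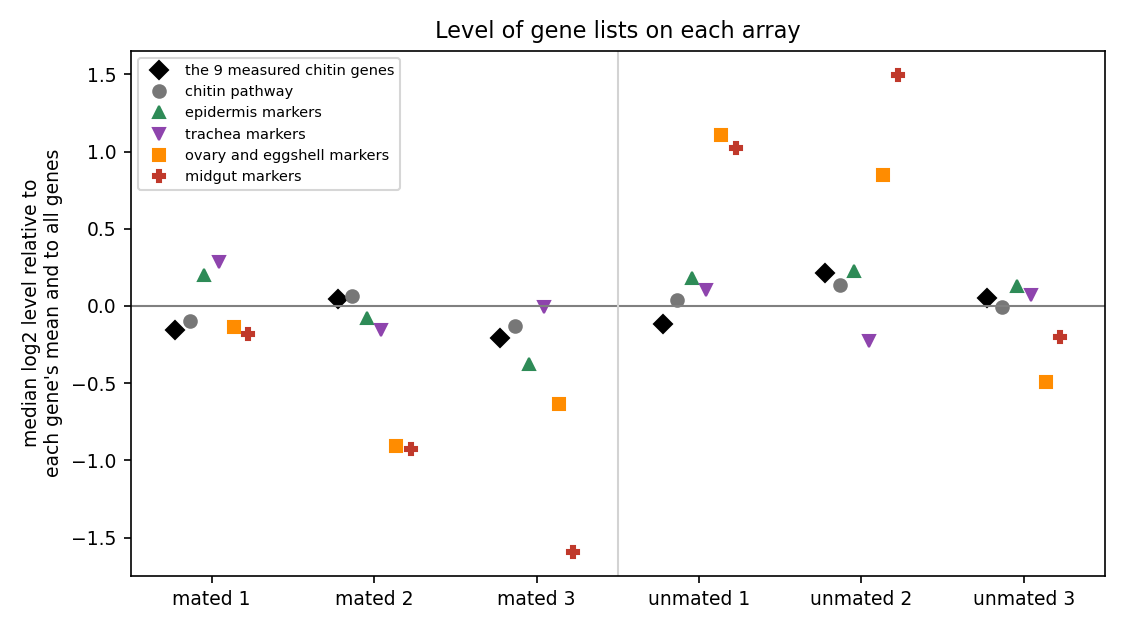
Median log2 level of gene lists (y axis, minus each gene's own mean and minus the median of all genes) on each array (x axis). The median of the 9 chitin genes (diamonds) stays between -0.21 and 0.22. That of midgut markers (crosses) runs from -1.59 to 1.50 and that of ovary and eggshell markers (squares) from -0.91 to 1.11. For epidermis markers it runs from -0.38 to 0.23 and for trachea markers from -0.23 to 0.29.

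The genes most like kkv and Gasp over the 6 arrays were taken by the mean absolute difference of their centred log2 values, among 5865 brighter genes. Nearest to kkv, at 0.084, was Roc2, which encodes a RING subunit of cullin ubiquitin ligases. It had 100.3, 100.3 and 73.2 on the mated arrays, against 56.6, 163.4 and 92.4 on the unmated arrays, so it too was lowest on unmated array 1 and highest on unmated array 2. CG17359, CG15153, CG32432 and CG10418 followed, at up to 0.19. Nearest to Gasp, at 0.043, was sano, with 274.1, 278.6 and 220.9 on the mated arrays, against 173.0, 242.0 and 301.3 on the unmated arrays. The next were Ns4, Ire1, which encodes a sensor of ER stress, CG13917 and Iru, at up to 0.080. With 6 arrays and 5865 candidates, close neighbours are to be found for any gene. Candidates were limited to probe sets above the median level, where only 16 of the 43 chitin pathway genes lie, so most of that list could not appear.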

How the data were processed

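Per the submitters' processing notes the arrays were processed with RMA, with no version given. The authors deposited linear intensities whose mean over the middle 96% of values is 250 on every array, so each array was taken to have been multiplied by a single factor. How probes were summarised is not known. Of 14010 probe sets, 44 controls were left out. Names came from the platform annotation, where 12443 probe sets had 1 gene, 327 several and 1196 were not listed, and symbols were updated by Entrez identifier to RefSeq (Release 6 plus ISO1 MT). A probe set with several genes named none of them. Groups were compared on log2 of the intensity, with no offset or filter, by limma 3.58.1 (lmFit, eBayes, two-sided) in R 4.3.3, adjusted over 13966 probe sets. The code was tested on simulated data.

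The 10 genes, the pathway and marker lists and the alternatives were chosen with earlier results of these data known. Beyond the 10, pathway genes were named where the unadjusted p was under 0.05 or the groups did not overlap, with the 6 of smallest p, and the 5 genes nearest to kkv and to Gasp. Cht4 and Cht10 were named for arrays under 14.2. Cht1 and Cht3 are synonyms of Cht10 in RefSeq and were counted under it. Ddc, stw, y, t, ple, e, btl, uif, vvl, pio and Octbeta2R were named as markers after their values were seen. Alternatives were 3 scalings, a filter on dim probe sets, an offset of 32, other variance settings, weights per array, a block on the replicate number, arrays left out, and averaging all probe sets of a gene.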

Additional observations from a re-analysis of the deposited data

How the results depend on the processing

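Limma called 0 probe sets under every alternative that tested probe sets at the adjusted threshold, and 921 at an unadjusted p of 0.05. For knk the unadjusted limma p was 0.035 among probe sets above the median level and 0.042 with an offset of 32. It was 0.016 with array weights, 0.038 without mated replicate 2, 0.022 without unmated replicate 3, and above 0.05 in the rest. The lowest adjusted p of knk in any setting was 0.289. Cht6 had an unadjusted p of 0.011 with its probe sets averaged. The difference of kkv lay on the other side of 0 after quantile normalization (0.057), median centring (0.063), cyclic loess (0.055) and without unmated replicate 2. With 1 array left out it ran from -0.63 to 0.22. That of Cht7 did after quantile normalization (0.039) and cyclic loess (0.12), that of mmy with array weights (-0.0096) and without mated replicate 2 (from -0.13 to 0.30 with 1 array left out), and that of Gasp without unmated replicate 1 (from -0.081 to 0.37). Without unmated arrays 1 and 2, Cht2 (0.14), Cht5 (0.083) and Gasp (-0.22) changed sign. The median of the 9 genes relative to all genes, -0.24, was -0.048 after quantile normalization, -0.013 after cyclic loess, -0.075 with an offset of 32, -0.41 among the 3 genes above the median level, and ran from -0.33 to 0.0084 with 1 array left out, the last without mated replicate 3. The pathway median, -0.23, was -0.059, -0.042, -0.059 and 0.0059 (16 genes) under the same 4 settings in that order, -0.12 without unmated arrays 1 and 2, and -0.28 to -0.097 with 1 array left out. The cause was not tested, other than that the filter leaves fewer genes. Arrays with the same replicate number did not deviate together, with correlations of -0.40, -0.11 and -0.30 over 6983 brighter probe sets. Arrays of different numbers had correlations of -0.22 to 0.45. The highest were 0.45 for mated 1 with unmated 3, 0.42 for mated 2 with unmated 1 and 0.39 for mated 3 with unmated 2. Deviations sum to 0 within each group, which constrains these correlations. These values show no pairing by number, but 3 arrays per group cannot exclude one. With the replicate block limma again called 0 probe sets. The block cannot change a log2 difference in this balanced design, so the medians of -0.24 and -0.23 were bound to stay the same.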

Other observations

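Probe sets of 1 chitin pathway gene did not always share a difference. The cases given here were chosen after the values were seen. The obstructor gene obst-E had 2 probe sets. One read 108.0, 185.2 and 148.7 on the mated arrays, against 14.8, 16.0 and 67.3 on the unmated arrays, with groups that did not overlap and a log2 difference of 2.51 ± 0.63 (SE), the largest of any chitin pathway probe set, at an adjusted p of 0.627 in limma. The other read 79.9, 181.4 and 189.9 on the mated arrays, against 162.5, 159.4 and 117.3 on the unmated arrays, a log2 difference of -0.048 ± 0.43 (SE). It was this second one that stood for the gene, because its mean log2 value over the 6 arrays was higher. Of all probe sets, 8.59% lay lower and 2.33% higher in mated oviducts without overlap. Some pathway probe sets that did not stand for their gene lay lower in this way. One of 4 for the deacetylase gene Cda4 read 20.9, 6.6 and 16.8 on the mated arrays, against 51.9, 30.0 and 45.0 on the unmated arrays, a log2 difference of -1.64 ± 0.51 (SE), beside -0.18 ± 0.35 for the one that stood for the gene. A dim one for obst-A read 4.5, 3.9 and 6.8 on the mated arrays, against 10.1, 20.8 and 10.2 on the unmated arrays, a log2 difference of -1.39 ± 0.43 (SE), beside -0.70 ± 0.64. Both had an adjusted p of 0.674 in limma. The remaining Cda4 probe sets had groups that overlapped, with log2 differences of -0.50 ± 0.62 and -0.62 ± 0.49 (SE). Which transcripts each probe set reads was not analysed here.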
